A study of Homo sapiens with 4 samples.

Results

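The 42 genes described here encode enzymes of 3 linked routes of carbon metabolism, namely glycolysis, the pentose phosphate route and the citrate cycle, with the glucose transporter SLC2A1 and the enzymes that link these routes. They were chosen by gene name from a list of these pathways, drawn up with earlier results of these data known, out of 61544 genes in the count table. The data come from HT29 and HCT116, both human lines derived from colorectal carcinomas. Each line was sequenced as 1 untreated control library and 1 library made after 24 h with lipopolysaccharide (LPS, a cell wall lipid of Gram-negative bacteria) at 1 ug/mL, which the study used to model inflammation of intestinal epithelial cells. The labels give no engineered change in either line, and no condition has a repeat culture.

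Glycolysis splits glucose into pyruvate in the cytosol and yields a small amount of ATP and NADH. Pyruvate is either reduced to lactate, which returns the NADH to NAD+, or enters the mitochondrion, where pyruvate dehydrogenase makes the acetyl-CoA that the citrate cycle oxidises. The pentose phosphate pathway branches off at glucose 6-phosphate and supplies NADPH and ribose for nucleotides, and proliferating tumour cells are known for a high flux through glycolysis to lactate even when oxygen is present.

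The total counts ran from 19105058 to 21268959 per library. Of 10 markers of colon epithelium, EPCAM, CDH1, KRT8, KRT18 and KRT19 were present in both lines, whereas KRT20 was at 0 in all 4 libraries. The other 4 markers had at most 39 counts per library in at least 1 line. VIL1 had 2637 and 3004 counts in HT29 (control and LPS) and 4 and 0 in HCT116, and LGALS4 had 7005 and 8299 in HT29 and 0 and 10 in HCT116. CDX1 had 3 and 17 counts in HT29 and 0 in both HCT116 libraries, and CDX2, an intestinal transcription factor, had 18 and 39 in HT29 and 474 and 572 in HCT116. HCT116 thus lacked all but traces of VIL1, LGALS4 and CDX1. Transcripts of the mitochondrial genome took 3.75% (control) and 4.29% (LPS) of HT29 counts, compared with 5.01% (control) and 7.16% (LPS) of HCT116 counts.

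Of the 42 genes, 5 were called with a difference of at least 2-fold between the lines. These were PGK1 (ENSG00000102144.15), TALDO1 (ENSG00000177156.11) and RPE (ENSG00000197713.15), with more RNA in HT29, and ALDOC (ENSG00000109107.14) and ENO2 (ENSG00000111674.9), with more in HCT116. PGK1 makes the first ATP of glycolysis, and its promoter is a textbook target of hypoxia-inducible factor. TALDO1 and RPE belong to the non-oxidative arm of the pentose phosphate pathway, and ALDOC and ENO2 are the isozymes of aldolase and enolase that are best known from neurons. Part of the 250 bases upstream of the RefSeq start is shown for 4 of these 5, because they are the genes called with a 2-fold difference. Each stretch begins 250 bases before the start. It ends 1 base before it for PGK1, 50 for TALDO1, 54 for ALDOC and 74 for RPE. ENO2, which differs most, is not shown because the 250 bases before its start lie wholly in annotated exons. Each stretch ends where an annotated exon begins, is written 5′ to 3′ on the strand of the gene, and comes from RefSeq on GRCh38.p14. Capitals mark matches to ACGTG or GCGTG, the core bound by hypoxia-inducible factor, on either strand. PGK1 lies at chrX:78103998-78104247 on the plus strand, ALDOC at chr17:28576949-28577145 on the minus strand, TALDO1 at chr11:747214-747414 on the plus strand and RPE at chr2:210002388-210002564 on the plus strand.
PGK1: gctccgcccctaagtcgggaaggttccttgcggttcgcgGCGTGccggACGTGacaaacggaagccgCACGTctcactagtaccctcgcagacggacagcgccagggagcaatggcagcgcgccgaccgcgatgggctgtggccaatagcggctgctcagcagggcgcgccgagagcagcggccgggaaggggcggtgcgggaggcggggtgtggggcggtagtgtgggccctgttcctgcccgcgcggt
ALDOC: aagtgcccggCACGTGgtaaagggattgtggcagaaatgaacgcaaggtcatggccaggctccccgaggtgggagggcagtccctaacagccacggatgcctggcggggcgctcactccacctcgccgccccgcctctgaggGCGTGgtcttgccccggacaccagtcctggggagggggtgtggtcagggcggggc
TALDO1: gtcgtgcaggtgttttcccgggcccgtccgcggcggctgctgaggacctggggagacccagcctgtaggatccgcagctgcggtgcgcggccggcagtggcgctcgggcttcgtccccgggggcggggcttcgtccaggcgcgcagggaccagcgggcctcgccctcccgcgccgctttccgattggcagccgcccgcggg
RPE: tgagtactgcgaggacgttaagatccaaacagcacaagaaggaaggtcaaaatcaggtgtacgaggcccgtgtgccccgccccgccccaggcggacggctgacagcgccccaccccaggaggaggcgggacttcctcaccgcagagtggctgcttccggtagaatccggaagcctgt

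The PGK1 stretch holds 3 matches and the ALDOC stretch 3, of which 2 are the opposite strands of 1 CACGTG, the E-box that other factors also bind. The TALDO1 and RPE stretches hold 0. Over the full 250 bases the matches were 3 for PGK1, 5 for ALDOC, 0 for TALDO1, 0 for RPE and 1 for ENO2. Genes can have several RefSeq starts, each with a window of the 250 bases before it. Of the 41 members with a promoter entry, 27 (65.9%) had a match in at least 1 window, compared with 47.4% of 27305 genes of the table. The members have more windows per gene, 66 in all, and counted by window the shares were nearer, at 32 of 66 (48.5%) compared with 43.2% of 35116. CACGTG was found in 14.6% of the members and 7.7% of those genes, or in 9.1% and 6.3% of the windows. OGDH has no entry. These are counts of letters in a fixed window and do not show that any factor was bound.

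Taken as a group, the 42 genes made up 1.81% (95% Clopper-Pearson interval 1.80% to 1.82%) of the counts in untreated HT29 and 1.73% (1.73% to 1.74%) after LPS. In untreated HCT116 they made up 1.51% (1.50% to 1.51%), and after LPS 1.54% (1.53% to 1.54%). The share was higher in both HT29 libraries than in both HCT116 libraries, and these intervals, like all others given here, cover counting error only. PKM, ENO1 and GAPDH together held between 49.7% and 51.7% of the members' counts in every library. All 42 genes passed the filter on low counts, with between 184 and 81768 counts per library.

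Levels of different genes were compared in TPM, which divides each count by the merged exon length of the gene and scales every library to the same sum. In TPM, 17 of the 42 genes ranked among the top 10% of the 14523 genes tested, those whose mean was 1 CPM, a count scaled to the library total, or more, and 4 ranked in the top 1%. Those 4 were GAPDH, which oxidises glyceraldehyde 3-phosphate, ENO1, the main enolase, PKM, the pyruvate kinase, and TPI1, which interconverts the triose phosphates. LDHA, which reduces pyruvate to lactate, followed as the fifth.
GAPDH stood at 3177 TPM in untreated HT29, 2930 in LPS-treated HT29, 3132 in untreated HCT116 and 3057 in LPS-treated HCT116. ENO1 stood at 1920, 1821, 1554 and 1556 TPM in the same order of libraries, and PKM at 1718, 1616, 1249 and 1216 TPM. The ranges of the lines overlapped for GAPDH, while for ENO1 and PKM both HT29 libraries were above both HCT116 libraries. TPI1 stood at 1146, 989, 992 and 815 TPM, so that HT29 with LPS and the HCT116 control nearly coincided in TPM. In TMM-normalized CPM it stood at 920 and 792 in HT29 and 735 and 655 in HCT116, with no overlap. LDHA stood at 675 and 654 TPM in HT29 and at 357 and 335 TPM in HCT116, with no overlap. The scales differ for LPS in HCT116, where GAPDH was lower with LPS in TPM (3132 and 3057) and higher in TMM-normalized CPM (2061 and 2181), so the fold changes between the lines and the LPS ratios below rest on TMM normalization. At the other end lay PDK1, a kinase that switches off pyruvate dehydrogenase, at 2.98 and 2.93 TPM in HT29 and 2.02 and 2.03 TPM in HCT116. Its TPM depends on the length used, since its merged exons hold 14845 bases and its longest coding transcript 1515. In TMM-normalized CPM, PDK1 stood at 13.2 and 12.9 in HT29, near ALDOC at 12.6 and 13.0. In HCT116 it stood at 8.22 and 8.99 CPM, where it was again the lowest member.

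**Figure D1:**
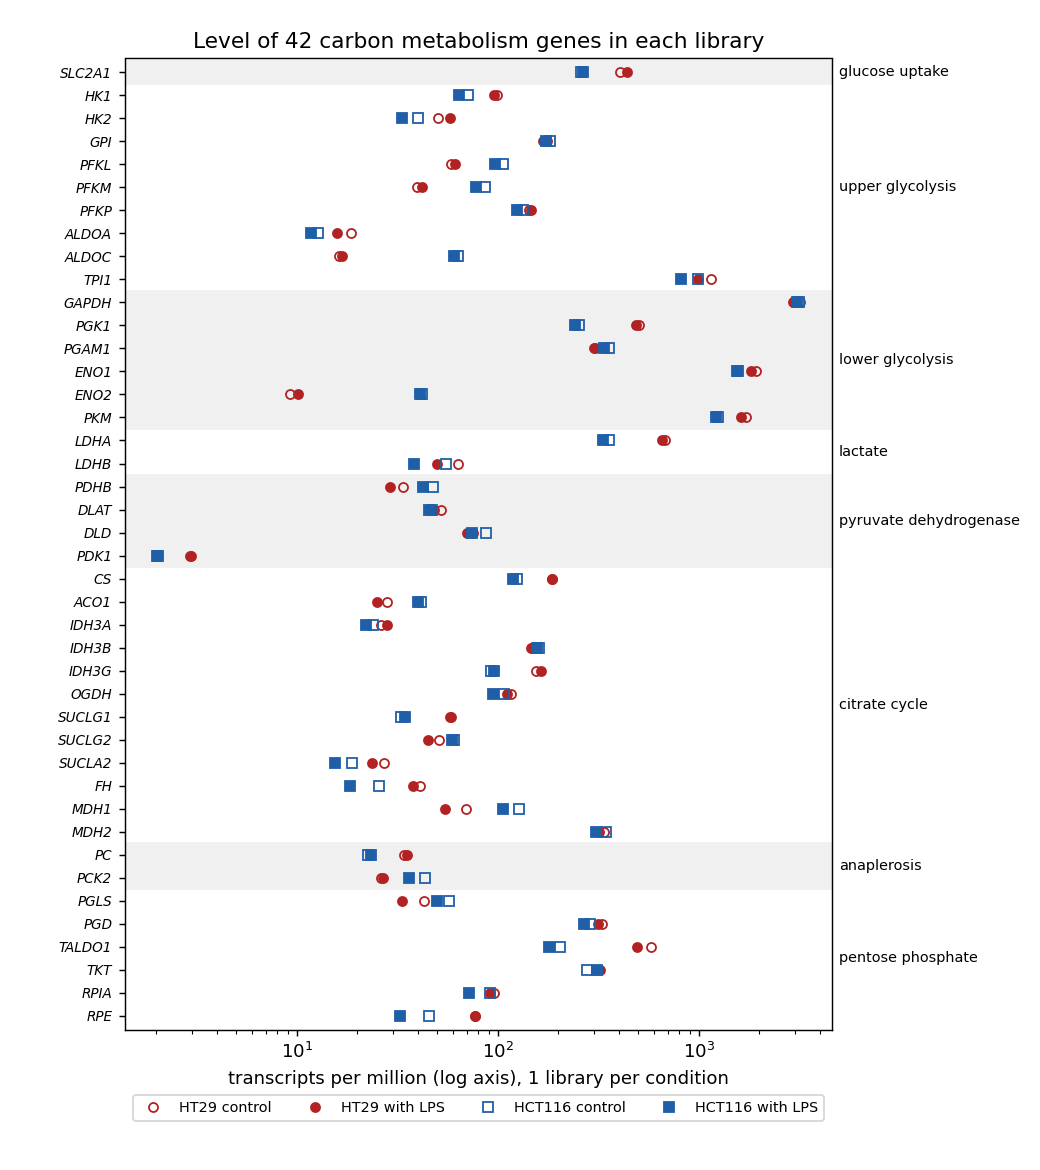
Level of each of the 42 genes in TPM (log axis) in the 4 libraries, with circles for HT29, squares for HCT116, open symbols for controls and filled symbols for LPS. The levels run from about 2.02 TPM for PDK1, which has 14845 bases of merged exons, to 3177 TPM for GAPDH. The open and filled symbols of a line lie close together beside the gap between the lines for ALDOC and ENO2.

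The median length of the merged exons was 5155 bases for the members and 5031 bases for all genes tested, and the median GC content was 52.4% for the members and 48.5% for all. ALDOA and LDHB are uncertain in level. The longest coding transcript of ALDOA lies to 89.8% in same-strand exons of a second annotated gene, ENSG00000285043, and that of LDHB lies to 76.5% in those of ENSG00000285854. ALDOA, usually the main aldolase, had only 385, 360, 301 and 274 counts in the order given above. The second gene had 44 to 56 counts per library at the ALDOA locus and 0 in every library at the LDHB locus. Whether reads in shared exons were discarded in counting is not stated in the sources used here and was not tested.

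The comparison between the lines asked which of these genes differ between HT29 and HCT116 irrespective of LPS. Of the 42 genes, 25 were called with more RNA in HT29 and 11 with more in HCT116, at an adjusted p under 0.05 (edgeR's quasi-likelihood test, Benjamini-Hochberg over all 14523 genes tested). Over all genes tested, 36.8% were called higher in HT29 and 39.5% higher in HCT116, so that 76.3% were called in either direction against 85.7% of the members. Among well-measured genes, those averaging 20 CPM or more, the share called was 81.2%. Most of the transcriptome was thus called between the lines. By direction, 59.5% of the members were higher in HT29 and 26.2% higher in HCT116, beside 46.4% and 34.8% of the well-measured genes. The libraries of the lines did not overlap for 24 members higher in HT29 and 12 higher in HCT116, and for 42.3% and 45.2% of all genes tested (50.5% and 38.4% of the well-measured ones).

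Large differences were fewer among the members than among all genes. A log2 fold change of at least 1 together with the call was reached by 3 members higher in HT29 and 2 higher in HCT116, or 11.9% of the 42. Over all genes tested this held for 16% and 23.8%, together 39.8%, and for 27.5% of the well-measured genes. The median log2 fold change of HT29 over HCT116 was 0.27 for the members and -0.05 for all genes, and the median absolute value was 0.54 for the members and 0.76 for all. In bulk RNA, fewer cells expressing a gene and less of its RNA per cell cannot be told apart. The test treats the control and LPS libraries of a line as 2 samples of it, so that its p-values do not measure the spread between cultures.

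**Figure D2:**
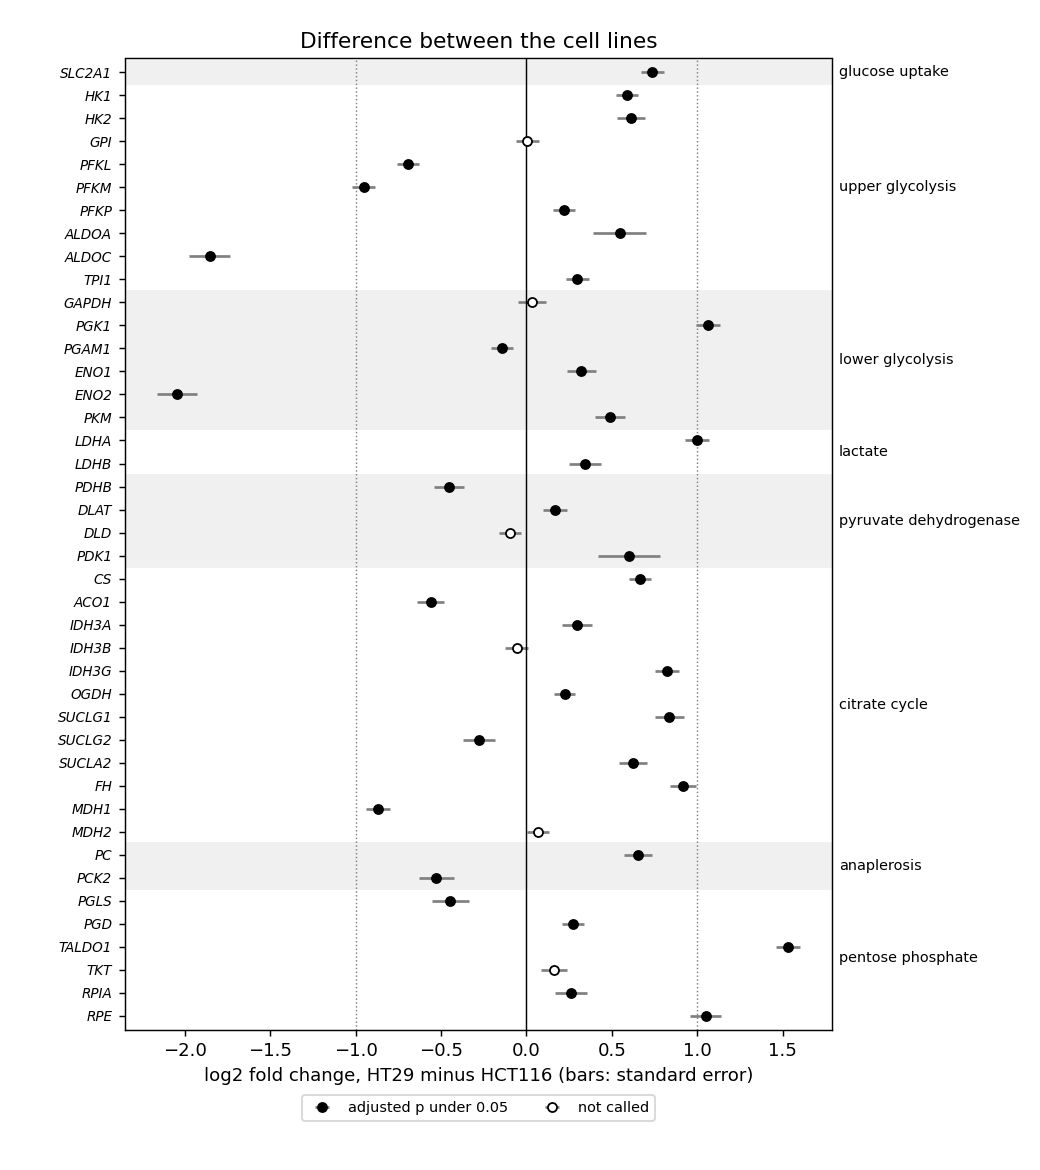
Log2 fold change of HT29 over HCT116 for each of the 42 genes, with bars for the standard error of the edgeR fit over all 4 libraries and dotted lines at a 2-fold difference. Filled points were called and open points were not; TALDO1, PGK1 and RPE lie past the right dotted line, ALDOC and ENO2 past the left one, and 6 points are open.

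Glucose uptake and the first steps of glycolysis showed more RNA in HT29 for some enzymes and more in HCT116 for others. SLC2A1, the basal glucose transporter GLUT1, had 797 and 862 CPM, normalized by TMM, in HT29 without and with LPS, and 472 and 524 CPM in HCT116 in that order. Both HT29 values lay above both HCT116 values, and the log2 fold change was 0.74 ± 0.07 (SE, 2 libraries per line). HK1, the hexokinase of most tissues, had 185 and 179 CPM in HT29 and 122 and 120 CPM in HCT116. HK2, the inducible hexokinase, had 88.5 and 101 CPM in HT29 and 64.9 and 59.1 CPM in HCT116. Neither overlapped between the lines, and both were higher in HT29, by log2 fold changes of 0.59 ± 0.06 and 0.61 ± 0.08. GPI, which converts glucose 6-phosphate to fructose 6-phosphate, was not called, at 557 and 529 CPM in HT29 and 530 and 552 CPM in HCT116, with overlapping values.

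Phosphofructokinase commits sugar to glycolysis and has 3 isozymes, PFKL of liver, PFKM of muscle and PFKP of platelets. PFKM had 85.4 and 89.8 CPM in HT29 and 171 and 167 CPM in HCT116. PFKL had 156 and 163 CPM in HT29 and 260 and 256 CPM in HCT116. PFKP had 327 and 336 CPM in HT29 and 284 and 286 CPM in HCT116. The libraries of the lines did not overlap for any of the 3, with PFKM and PFKL higher in HCT116 (log2 fold changes -0.95 ± 0.07 and -0.70 ± 0.06) and PFKP higher in HT29 (0.22 ± 0.06). The PFKP call was lost with library sizes alone as normalization and without either HCT116 library (adjusted p = 0.223 with sizes alone, 0.0794 without the control, 0.0605 without LPS, in edgeR).

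The aldolase ALDOC had 12.6 and 13.0 CPM in HT29 and 45.2 and 47.2 CPM in HCT116, from 228, 259, 1013 and 965 counts. Both HCT116 libraries were well above both HT29 libraries, by 3.61-fold, with a log2 fold change of -1.85 ± 0.12 and an adjusted p of 1.19e-10 in edgeR's quasi-likelihood test. ALDOA had 21.2 and 18.1 CPM in HT29 and 13.4 and 13.4 CPM in HCT116, a log2 fold change of 0.55 ± 0.15 in the opposite direction. TPI1, which has a copy elsewhere in the genome at 98.1% identity, was higher in HT29 by 0.30 ± 0.07, a call lost without the HT29 control or the HCT116 LPS library (adjusted p = 0.0894 and 0.110 in edgeR).

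In the lower part of glycolysis, PGK1 had 817 and 787 CPM in HT29 and 376 and 392 CPM in HCT116. The HT29 libraries were 2.09-fold higher with no overlap, at a log2 fold change of 1.06 ± 0.07 and an adjusted p of 1.39e-10 in edgeR's quasi-likelihood test. ENO2 had 11.8 and 12.8 CPM in HT29 and 49.4 and 52.3 CPM in HCT116, and was 4.13-fold higher in HCT116 with no overlap (log2 fold change -2.05 ± 0.12, adjusted p = 2.17e-11 in the same edgeR test). ENO1, the isozyme found in most tissues, had 2979 and 2815 CPM in HT29 and 2226 and 2417 CPM in HCT116, a log2 fold change of 0.32 ± 0.08 in favour of HT29, with the call lost without the HCT116 control (adjusted p = 0.0972 in edgeR). On hg38, ENO2 lies at chr12:6913745-6923698, near TPI1 (chr12:6867119-6870948) and GAPDH (chr12:6534512-6538374), and these neighbours did not share its direction. GAPDH was not called, at 2265 and 2080 CPM in HT29 and 2061 and 2181 CPM in HCT116 and a log2 fold change of 0.03 ± 0.08.

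PKM, counted over all its splice forms together, was higher in HT29 by 0.49 ± 0.09. PGAM1, the phosphoglycerate mutase, was called slightly higher in HCT116 (-0.14 ± 0.06) at an adjusted p of 0.0494 in edgeR's quasi-likelihood test, a call lost in 7 of 10 alternatives, and it has a copy at 99.6% identity. LDHA had 1213 and 1170 CPM in HT29 and 591 and 601 CPM in HCT116. Its log2 fold change of 1.00 ± 0.07 fell just short of the 2-fold rule, and the lines did not overlap. LDHB, the isozyme that favours oxidation of lactate, had 56.5 and 43.8 CPM in HT29 and 45.5 and 33.8 CPM in HCT116. These values overlapped, and the LDHB call (0.34 ± 0.09) was lost with library sizes alone and without the HT29 control or the HCT116 LPS library (adjusted p = 0.0578, 0.319 and 0.430 in edgeR).

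The 4 members around pyruvate dehydrogenase all lay short of a 2-fold difference between the lines. PDHB, a subunit of its first enzyme, was higher in HCT116 (log2 fold change -0.45 ± 0.09), and PDK1 was higher in HT29 (0.60 ± 0.18). DLAT, the acetyltransferase core, was called at 0.17 ± 0.07 in favour of HT29, a call also lost in 7 of 10 alternatives, and DLD, the lipoamide dehydrogenase that the complex shares with the OGDH complex, was not called (-0.10 ± 0.07). Genes of the same step that are no members differed more. Log2 fold changes were -6.27 for PDP1, -2.23 for PDK3, -1.34 for PDK2, -0.83 for PDP2 and -0.62 for PDPR. They were 0.86 for PDHX and 0.75 for PDHA1, and PDK4 was not called (0.24). PC and PCK2, which add oxaloacetate or draw it off, went opposite ways. PC, which carboxylates pyruvate to oxaloacetate, was higher in HT29 (0.65 ± 0.08), and PCK2, the mitochondrial enzyme that draws oxaloacetate off to phosphoenolpyruvate, was higher in HCT116 (-0.53 ± 0.10).

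Of the 12 citrate cycle genes, 7 were called higher in HT29, 3 higher in HCT116 and IDH3B and MDH2 were not called. CS, which starts the cycle by joining acetyl-CoA to oxaloacetate, was higher in HT29 by a log2 fold change of 0.67 ± 0.06. Also higher in HT29 were FH, the fumarase (0.92 ± 0.08), SUCLG1, the alpha subunit of succinate-CoA ligase (0.84 ± 0.09), and IDH3G, a regulatory subunit of the NAD-dependent isocitrate dehydrogenase (0.82 ± 0.07). IDH3A, its catalytic subunit, differed by 0.30 ± 0.09, and 63.9% of its longest coding transcript lies in exons of other genes on the opposite strand. The IDH3A call was lost with library sizes alone (adjusted p = 0.109 in edgeR). OGDH, which oxidises 2-oxoglutarate, was higher in HT29 by 0.22 ± 0.06, a call lost with library sizes alone and without the HT29 control or the HCT116 LPS library (adjusted p = 0.212, 0.0725 and 0.105 in edgeR). Higher in HCT116 were ACO1, the cytosolic aconitase and iron regulatory protein (-0.56 ± 0.08), and MDH1, the cytosolic malate dehydrogenase (-0.87 ± 0.07). MDH2, its mitochondrial counterpart, had 365 and 345 CPM in HT29 and 345 and 332 CPM in HCT116 and a log2 fold change of 0.07 ± 0.06, and IDH3B, the other regulatory subunit, was at -0.06 ± 0.07.

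The beta subunits of succinate-CoA ligase, which decide whether the enzyme makes GTP (SUCLG2) or ATP (SUCLA2), went opposite ways. SUCLA2 had 71.6 and 62.0 CPM in HT29 and 45.8 and 40.8 CPM in HCT116. SUCLG2 had 46.7 and 41.0 CPM in HT29 and 51.4 and 54.6 CPM in HCT116. Neither overlapped between the lines, with log2 fold changes of 0.62 ± 0.08 and -0.28 ± 0.10, and the SUCLG2 call was lost with DESeq2 and without either LPS library (adjusted p = 0.0622 in DESeq2, 0.245 and 0.0735 in edgeR without that of HT29 and of HCT116).

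The largest difference in favour of HT29 was in the pentose phosphate pathway. TALDO1, the transaldolase, had 501 and 424 CPM in HT29 and 163 and 156 CPM in HCT116, or 9103, 8447, 3646 and 3196 counts. The HT29 libraries were 2.89-fold higher with no overlap, at a log2 fold change of 1.53 ± 0.07 and an adjusted p of 7.35e-13 in edgeR's quasi-likelihood test. RPE, which epimerises ribulose 5-phosphate, had 80.5 and 80.2 CPM in HT29 and 43.7 and 34.3 CPM in HCT116. It was 2.07-fold higher in HT29 with no overlap (log2 fold change 1.05 ± 0.09, adjusted p = 6.70e-09 in the same edgeR test), and 26.4% of its longest coding transcript lies in exons of KANSL1L on the opposite strand.
PGD, the NADPH-producing dehydrogenase of the oxidative arm, was higher in HT29 by 0.27 ± 0.06, and RPIA, the ribose phosphate isomerase, by 0.26 ± 0.09. Both calls were lost with library sizes alone (adjusted p = 0.0604 for PGD and 0.236 for RPIA in edgeR). The RPIA call was also lost without the HT29 control or the HCT116 LPS library (adjusted p = 0.0861 and 0.324 in edgeR). PGLS, the lactonase between the oxidative steps, was higher in HCT116 (-0.45 ± 0.11), and its call was lost without the HT29 LPS library (adjusted p = 0.0909 in edgeR). TKT, the transketolase that works beside TALDO1, was not called, at 874 and 912 CPM in HT29 and 724 and 879 CPM in HCT116 and a log2 fold change of 0.16 ± 0.07 (adjusted p = 0.0564 in edgeR's quasi-likelihood test). Its HT29 control and HCT116 LPS values nearly coincided.

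Shares of isozymes were taken from counts per kilobase. PFKP made up 59.1% (95% Clopper-Pearson interval 58.2% to 60.1%) of phosphofructokinase in the HT29 control and 58.7% (57.8% to 59.6%) with LPS. In HCT116 it made up 41.0% (40.3% to 41.8%) and 41.7% (40.9% to 42.5%), so the lines lay far apart and LPS left the share within the counting intervals. ENO2 was a minor part of enolase in every library, at 0.48% and 0.55% in HT29 and 2.63% and 2.57% in HCT116. HK2 made up 33.7% (32.4% to 35.0%) of both hexokinases in untreated HT29 and 37.6% (36.3% to 38.9%) after LPS. In HCT116 it made up 36.0% (34.6% to 37.5%) before LPS and 34.4% (32.9% to 36.0%) after it, so the intervals of control and LPS were separate in HT29 and overlapped in HCT116.
SUCLG2 made up 65.2% and 65.5% of the beta subunits of succinate-CoA ligase in HT29 and 76.4% and 79.4% in HCT116. With the length of the longest coding transcript in place of merged exons, SUCLG2 was at 48.6% in the HT29 control and 62.0% in the HCT116 control, so that the larger subunit in HT29 changed with the length used. ALDOC made up 46.5% and 51.3% of aldolase in HT29 and 83.1% and 83.8% in HCT116, and LDHB 8.61% and 7.04% of lactate dehydrogenase in HT29 and 13.5% and 10.2% in HCT116. The last 4 pairs of values rest on the uncertain ALDOA and LDHB counts.

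**Figure D3:**
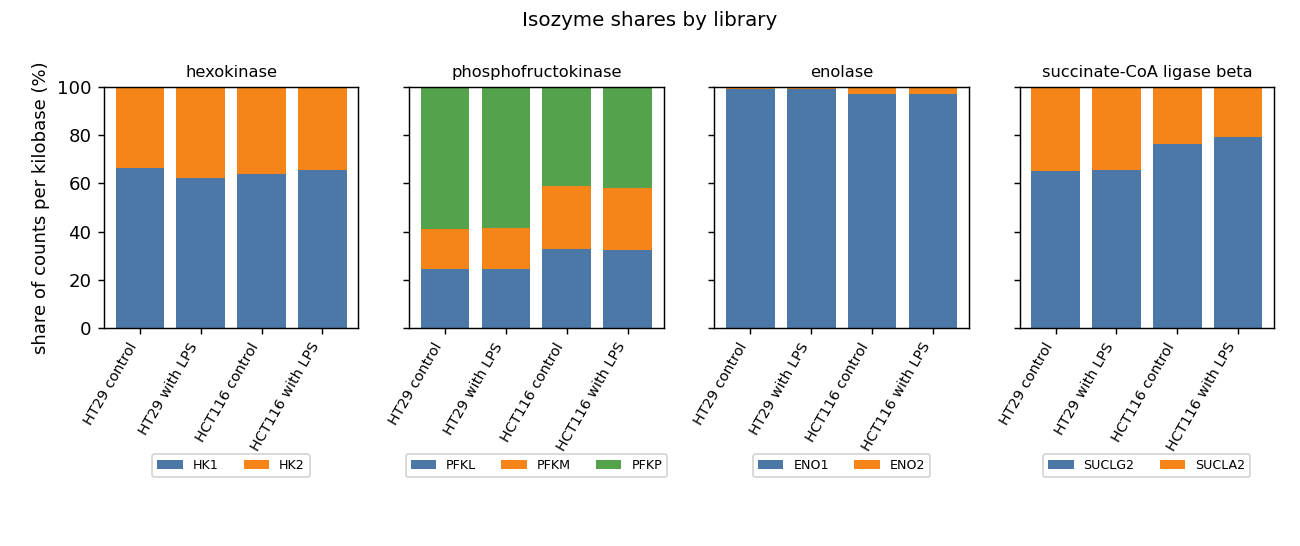
Share of each isozyme in the summed counts per kilobase (%, merged exon length) of hexokinase, phosphofructokinase, enolase and the succinate-CoA ligase beta subunits, 1 bar per library. PFKP stands at 59.1% in the HT29 control and 41.0% in that of HCT116, and HK2 goes from 33.7% in the HT29 control to 37.6% with LPS; aldolase and lactate dehydrogenase are not drawn because the ALDOA and LDHB counts are uncertain.

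A wider list of 61 genes of the same pathways that are no members was set beside them, and 51 of these were tested. Of the 51, 19 were called higher in HT29 and 21 higher in HCT116, beside 36.8% and 39.5% of all genes tested. With at least a 2-fold difference 19 of the 51 were called, compared with 5 of 42 members and 39.8% of all genes tested. The 8 with the largest differences were lower in 1 line to near absence or by several fold. SLC2A3, the glucose transporter GLUT3, had 1 and 0 counts in HT29 and 500 and 516 counts in HCT116. FBP1, the fructose bisphosphatase of gluconeogenesis, had 972 and 1047 counts in HT29 and 4 and 0 counts in HCT116. The ratios were 903 (95% counting interval 162 to 35702) for SLC2A3 and 568 (221 to 2086) for FBP1, in opposite directions.
PDP1, the phosphatase that reactivates pyruvate dehydrogenase, had 257 and 268 counts in HT29 and 24308 and 21468 counts in HCT116, a ratio of 77.5 (71.1 to 84.6). ME3, the mitochondrial NADP-dependent malic enzyme, was higher in HT29, and LDHD, which oxidises D-lactate, was higher in HCT116, by ratios of 238 and 36.3. HKDC1, a hexokinase family member, was higher in HT29 by a ratio of 9.18. TIGAR and PFKFB4, which set the level of fructose 2,6-bisphosphate, were higher in HCT116 by ratios of 6.53 and 5.12. Of 10 hypoxia-response genes that are no members, 3 were called higher in HT29 and 5 higher in HCT116, beside 36.8% and 39.5% of all genes tested. These 10 genes had a median log2 fold change of -0.56 against 0.27 for the members. Their part in the members' differences was not tested.

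LPS was compared within each line by the log2 ratio of LPS to control in TMM-normalized CPM, with no test because there is 1 library per condition. No member passed a log2 ratio of 0.58 in either direction in either line. Over all genes measured, 3.34% lay above this size and 2.49% below its negative in HT29 (13073 genes), and 3.73% and 2.5% in HCT116 (14463 genes). The members' log2 ratios spanned -0.37 to 0.19 in HT29 and -0.43 to 0.28 in HCT116, and LDHB was the lowest in both lines. Of the well-measured genes, 0.354% lay above 0.58 and 0.303% below -0.58 in HT29, and 0.426% and 0.125% in HCT116, so that 0 of 42 is near their background.

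**Figure D4:**
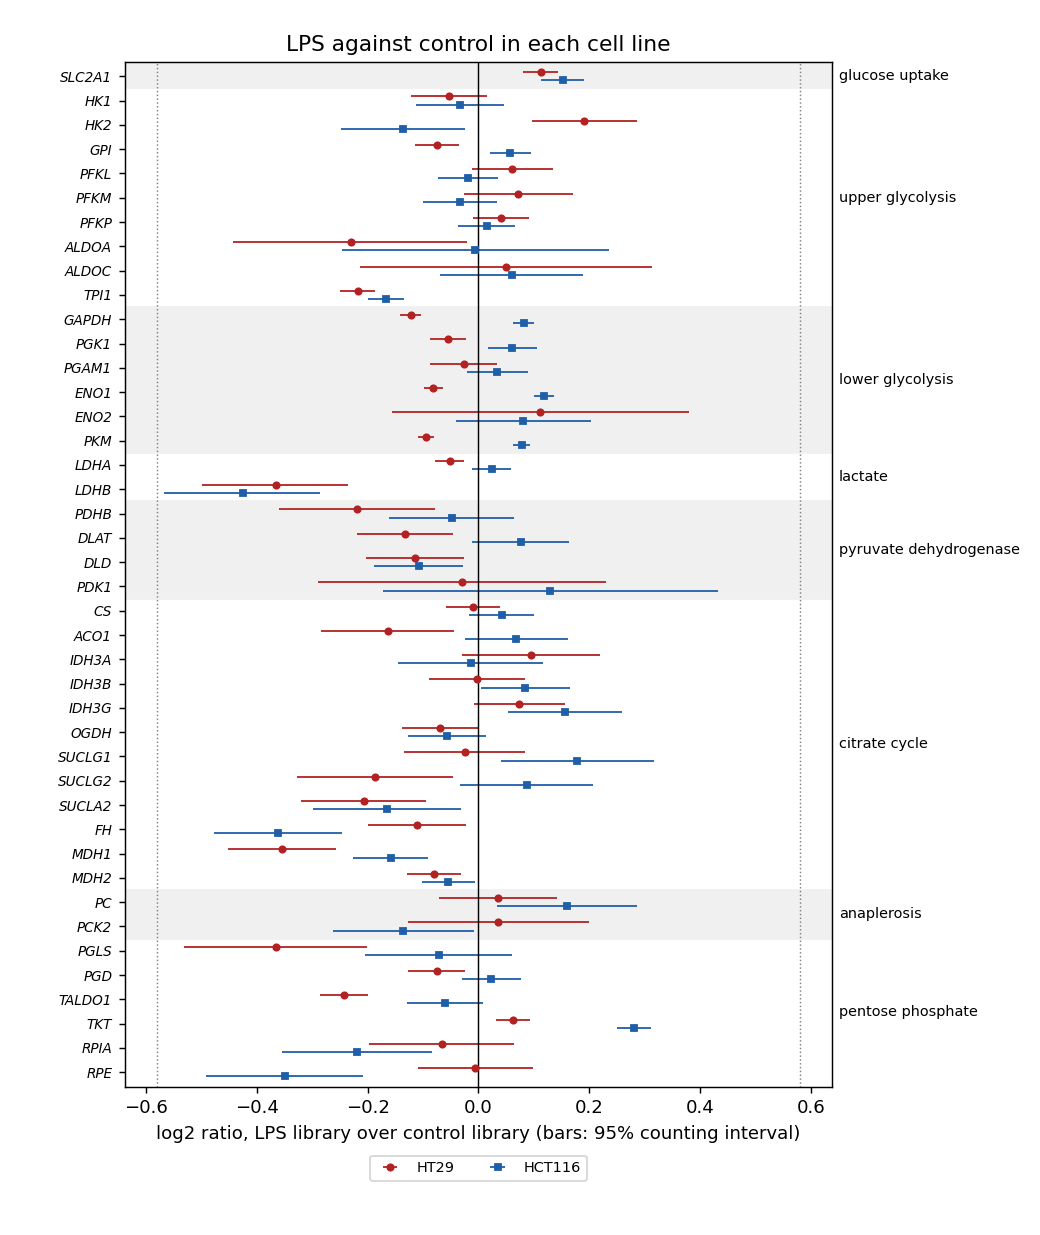
LPS over control as a log2 ratio for each of the 42 genes in HT29 (circles) and HCT116 (squares), with 95% counting intervals as bars and dotted lines at 0.58 in each direction. No point lies past a dotted line, LDHB is the lowest point of both lines at -0.37 and -0.43, and GAPDH, ENO1 and PKM lie left of 0 in HT29 and right of 0 in HCT116 on this CPM scale, whereas in TPM, which shifts all genes in HCT116 down, GAPDH and PKM lie left of 0 in both lines.

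Below that size the lines differed in balance. In HT29, 30 of the 42 ratios lay below 0 and 12 above it (71.4% and 28.6%, compared with 50.9% and 49.1% of all genes), and the counting interval lay wholly below 0 for 21 members (50%, compared with 17.9% of all genes and 22.7% of the well-measured genes). It lay wholly above 0 for HK2, SLC2A1 and TKT (7.14%, compared with 16.5% and 19%). In HCT116 the ratios were split into 20 below and 22 above 0, with the interval wholly below 0 for 11 members (26.2%, compared with 17.8% of all genes and 23.3% of the well-measured genes) and wholly above 0 for 11 (26.2%, compared with 17.2% and 19.6%). With TPM scaling these counts in HCT116 became 28 below and 1 above 0. That scaling moved the median ratio of all genes in HCT116 to -0.12 and that of the members to -0.10. The shares of all genes given here are on the TMM scale and were not counted in TPM. Over all genes 50.1% of the ratios lay below 0 and 49.9% above it in HCT116. The median ratio was -0.06 in HT29 and 0.02 in HCT116, beside medians of -0.0038 and -0.00041 over all genes. Deep genes have narrow intervals, and the spread between cultures is not in them.

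On the CPM scale, GAPDH, ENO1 and PKM stood on opposite sides of 0 in the lines. TPI1, which is also among the most abundant members, was below 0 in both. GAPDH had a log2 ratio of -0.12 (95% counting interval -0.14 to -0.10) in HT29 and 0.08 (0.06 to 0.10) in HCT116. ENO1 had -0.08 (-0.10 to -0.06) in HT29 and 0.12 (0.10 to 0.14) in HCT116, and PKM had -0.09 (-0.11 to -0.08) and 0.08 (0.06 to 0.09). Scaling by TPM shifts the median of all genes in HCT116 to -0.12 and turns GAPDH to -0.035 and PKM to -0.039 there, which lie below 0 but above that median. The intervals of all 3 left out 0, and so did those of GPI and PGK1 in the same direction, whereas HK2 went the other way. Whether LPS acted differently in the lines could not be tested, since 4 libraries leave no residual degrees of freedom for it. Mitochondrial-genome transcripts took 5.01% and 7.16% of the HCT116 counts without and with LPS, as given above. With those transcripts left out and TMM applied again, the members' ratios moved by less than their counting error in both lines. TPM was not recomputed without them, so the rerun does not bear on the shift seen in TPM.

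In both lines the counting interval lay below 0 for DLD, FH, LDHB, MDH1, MDH2, SUCLA2 and TPI1 (16.7% of the members, compared with 5.97% of the genes measured in both lines and 8.29% of the well-measured ones), and above 0 for SLC2A1 and TKT (4.76%, compared with 4.63% and 6.05%). LDHB had 1025 and 873 counts in HT29 without and with LPS, a log2 ratio of -0.37 (-0.50 to -0.23), and 1018 and 692 counts in HCT116, a log2 ratio of -0.43 (-0.57 to -0.29). MDH1 had log2 ratios of -0.35 (-0.45 to -0.26) and -0.16 (-0.23 to -0.09), and FH had -0.11 (-0.20 to -0.02) and -0.36 (-0.48 to -0.25). Both control libraries were thus above the LPS library of their own line for each of these 3 genes. TPI1 had -0.22 (-0.25 to -0.19) in HT29 and -0.17 (-0.20 to -0.13) in HCT116. TKT had 15863 and 18183 counts in HT29 and 16206 and 17993 counts in HCT116, with log2 ratios of 0.06 (0.03 to 0.09) and 0.28 (0.25 to 0.31).

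The test of LPS across both lines, in which the lines stand in for replicates, called 0 of the 42 members, while over all genes tested 0.11% were called higher and 0.0757% lower. At an unadjusted p under 0.05 in edgeR's quasi-likelihood test, TKT was higher and FH, LDHB, MDH1, SUCLA2, TALDO1 and TPI1 were lower, 2.38% and 14.3% of the members beside 3.59% and 3.78% of all genes and 4.91% and 5.75% of the well-measured ones. The smallest was LDHB, at a log2 fold change of -0.40 ± 0.09 and an adjusted p of 0.138 in edgeR's quasi-likelihood test. DESeq2 called LDHB (adjusted p = 0.0180) and TPI1 (-0.19, adjusted p = 0.00618). Its adjustment covered fewer genes than that of edgeR. Among the members it gave no adjusted p to ALDOA, ALDOC, ENO2, PDK1, PCK2 and PGLS. Of all genes with an adjusted p, DESeq2 called 1.72%. In edgeR, LDHB was called with no filter on low counts (adjusted p = 0.0253) and with a minimum of 5 CPM (adjusted p = 0.0496), and the adjusted p over all alternatives ran to 1.00 without the cell line as a block. Both genes have limits of counting, LDHB in the exons shared with another gene and TPI1 in its near-identical copy.

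Outside the members, the wider pathway list had 0 genes called for LPS in either direction. At an unadjusted p under 0.05 of the same edgeR test, 2 of its 51 genes tested were higher and 2 lower. Over all genes tested the shares were 3.59% and 3.78%. The hypoxia-response genes had a median log2 ratio of 0.12 in HT29 and 0.02 in HCT116, and 0 of 10 were called. By step of the pathways, the median ratio in HT29 was -0.12 for the 4 genes around pyruvate dehydrogenase, -0.07 for the 12 citrate cycle genes, the 6 pentose phosphate genes and the 6 lower glycolysis genes, and 0.04 for the 9 upper glycolysis genes. In HCT116 the corresponding medians were 0.01, 0.01, -0.07, 0.08 and -0.02. The lower glycolysis genes, from GAPDH to PKM, thus had 5 of 6 ratios below 0 in HT29 and 0 of 6 in HCT116 on the CPM scale, whereas TPM gives values below 0 for all of them but ENO1 in HCT116.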

How the data were processed

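The authors deposited 1 table of raw gene counts covering 4 libraries. Per the study's methods and the submitters' processing notes, reads were trimmed, aligned to hg38 with HISAT2 2.1.0 and counted with featureCounts 2.0.1 (cutadapt 1.9 and Trimmomatic 0.39 are also named). The strand and multiple-alignment options of the counting are not given in the sources used.

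Counts were normalized by TMM and tested with edgeR 4.0.16 in R 4.3.3 (quasi-likelihood test, Benjamini-Hochberg adjustment at 0.05, LPS and line as terms, 1 residual degree of freedom) over 14523 genes averaging 1 CPM or more. Log2 ratios within a line used a prior count of 2 and 95% Clopper-Pearson intervals. DESeq2 1.42.0 was an alternative. Exon overlaps were read from GENCODE 44 on hg38 and copies were found with minimap2 2.31. Scripts were tested on simulated data.

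Members and lists were chosen with earlier results of these data known. Values in all libraries were given for genes called with a 2-fold difference, the isozyme families and the 5 highest genes in TPM, and for others chosen after their values were seen.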

Additional observations from a re-analysis of the deposited data

Results flagged for a closer look

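For 6 members the counting intervals of the LPS log2 ratio lay on opposite sides of 0 in the 2 lines. Whether the lines differ in this was not tested, because 4 libraries leave no residual degrees of freedom. The ratio was below 0 in HT29 and above 0 in HCT116 for GPI (HT29 minus HCT116 -0.13), GAPDH (-0.20), PGK1 (-0.12), ENO1 (-0.20) and PKM (-0.17), whereas that of HK2 was above 0 in HT29 and below 0 in HCT116 (0.33). Of the genes measured in both lines, 2.11% had the first pattern and 2.35% the second. These shares were not counted for the well-measured genes alone, whose narrower intervals leave out 0 more often. On the TPM scale, which moves the median of all genes in HCT116 to -0.12, GPI, GAPDH, PGK1 and PKM were below 0 in HCT116 as well, at -0.059, -0.035, -0.055 and -0.039.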

How the results depend on the processing

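Of the 36 calls between the lines, 24 held under all 10 alternatives in tool, normalization, filter, block and left-out library, 16 of them higher in HT29 and 8 higher in HCT116, among them PGK1, TALDO1, RPE, ALDOC and ENO2. The other 12 were lost in at least 1 alternative, and DLD, IDH3B and TKT were gained in at least 1. Leaving out 1 library at a time gave 29 to 33 calls, and 4 to 6 with the 2-fold rule. The number of members called for LPS was 2 with DESeq2, 1 with no filter and 1 with a minimum of 5 CPM. The median LPS ratio in HCT116 turned to -0.0084 with library sizes alone, which also moved the median of all genes between the lines from -0.05 to -0.18 and that of the members from 0.27 to 0.13. TPM scaling, added after the data were seen, moved the median of all genes in HCT116 to -0.12 and that of the members to -0.10, with 28 counting intervals below 0 and 1 above, and turned GPI (-0.059), GAPDH (-0.035), PGK1 (-0.055), PKM (-0.039) and IDH3B (-0.032), while in HT29 all 42 ratios stayed within their counting intervals. Coding transcript length put the isozyme shares of the HT29 and HCT116 controls at 74.7% and 72.6% for HK1, 63.9% and 23.8% for ALDOA, 99.8% and 98.6% for ENO1, 93.6% and 89.8% for LDHA, and 48.6% and 62.0% for SUCLG2. Without ALDOA and LDHB, an alternative added after the data were seen, 34 of 40 members were called between the lines, beside 76.3% of all genes. The cause of these changes was not tested. Each condition has 1 library, so no repeat cultures could be paired within a line. The LPS test pairs the control and LPS libraries of each line through its term for the cell line.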
